A study of Mus musculus with 7 samples.

Results

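The surfactant genes of the mouse lung were followed across all cells of a single-cell RNA sequencing study of Smad4 deletion. The group held 10 genes, taken by symbol from the 31253 genes measured, and all 10 were found. They were the collectins Sftpa1 and Sftpd, the hydrophobic surfactant proteins Sftpb and Sftpc, the lipid transporter Abca3, the phosphate transporter Slc34a2, the lamellar body membrane protein Lamp3, the protease Napsa, the lipid enzyme Lpcat1 and the transcription factor Etv5. Their level was described in epithelial cells, and their stray RNA in leukocytes and endothelium served as a measure of the background of each library.

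Pulmonary surfactant is a film of phospholipid and protein that lowers surface tension in the alveoli. Alveolar type 2 (AT2) cells make it, store it in lamellar bodies and secrete it, and AT2 cells and alveolar macrophages clear it. SFTPB and SFTPC are the small hydrophobic proteins of the film, SFTPA1 and SFTPD are secreted lectins that also bind microbes, ABCA3 loads phospholipid into the lamellar body, and LPCAT1 makes the main saturated phospholipid. NAPSA helps to cut the SFTPB precursor, SLC34A2 takes up phosphate from the alveolar space, LAMP3 lies in the lamellar body membrane, and ETV5 maintains AT2 identity. SMAD4 is the shared partner of the receptor-activated SMADs in TGF-beta and BMP signalling.

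Lung samples of Smad4iko mice (Smad4fl/fl;Rosa26-creERT2, 4 samples) were compared with those of Smad4fl/fl mice (3 samples), littermates with floxed Smad4 and no Cre. Tamoxifen was given to both genotypes by intraperitoneal injection, 5 times at 75 mg/kg, from postnatal day 21 to day 26. Peripheral lung was collected when the mice were 8 weeks old. The Rosa26 locus is active in nearly all cell types, so the design did not limit deletion to epithelium, and mice with Cre and unfloxed Smad4 were not analysed here. Each library was labelled as a separate sample. The labels give neither the sex of the mice nor the number of animals per library, so p-values measure the spread between these samples. By Xist, Smad4iko 3 and Smad4fl/fl 3 were female and the others male.

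For 7 of the 10 genes a promoter was found in a RefSeq table of 300-base promoters (GRCm38.p6). Sftpc, Sftpd and Napsa had no entry. The promoters of 4 genes are shown because they differ in CpG content and belong to genes with different breadth across cell types. Lamp3 was found mainly in AT2-like cells and Sftpa1 in AT2-like and club-like cells, whereas Abca3 and Lpcat1 were also found in leukocytes or endothelium. Each line gives the 250 bases before the start used in the RefSeq table, which can differ from the gene start given further on, 5′ to 3′ on the gene's strand, and capitals mark matches to the searched motifs.
Sftpa1, chr14:41131538-41131787, plus strand: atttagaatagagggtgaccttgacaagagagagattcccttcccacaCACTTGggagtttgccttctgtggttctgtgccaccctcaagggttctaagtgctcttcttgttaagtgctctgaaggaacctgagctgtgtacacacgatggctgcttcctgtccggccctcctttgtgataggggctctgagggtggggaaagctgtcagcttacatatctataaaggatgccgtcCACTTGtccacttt
Lamp3, chr16:19706366-19706615, minus strand: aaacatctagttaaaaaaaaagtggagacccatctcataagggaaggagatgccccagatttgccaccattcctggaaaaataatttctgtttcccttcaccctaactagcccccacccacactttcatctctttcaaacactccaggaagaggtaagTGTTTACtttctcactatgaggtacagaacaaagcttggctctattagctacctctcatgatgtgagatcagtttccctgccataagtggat
Abca3, chr17:24351773-24352022, plus strand: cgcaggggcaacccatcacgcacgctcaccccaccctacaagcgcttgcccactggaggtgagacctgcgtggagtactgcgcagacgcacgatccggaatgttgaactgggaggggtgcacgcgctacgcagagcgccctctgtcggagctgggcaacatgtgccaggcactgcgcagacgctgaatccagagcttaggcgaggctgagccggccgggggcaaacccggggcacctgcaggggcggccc
Lpcat1, chr13:73466981-73467230, plus strand: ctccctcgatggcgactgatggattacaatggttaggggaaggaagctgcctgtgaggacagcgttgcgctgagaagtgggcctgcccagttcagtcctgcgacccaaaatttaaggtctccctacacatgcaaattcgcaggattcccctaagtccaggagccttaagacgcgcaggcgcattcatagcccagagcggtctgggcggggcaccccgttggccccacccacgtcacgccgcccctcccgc
Within 300 bases there were 5 CpG dinucleotides at Sftpa1 and 0 at Lamp3, against 29 at Abca3 and 25 at Lpcat1, where the median of all 32851 promoters was 7. Sftpb held 8. Slc34a2, which was mainly found in AT2-like cells, held 30. Etv5, which was low outside AT2-like cells, held 19 in one promoter entry and 37 in the other. CpG content therefore did not separate the genes by breadth.

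Motifs were searched as letters on both strands, with no overlap between them. The NKX2 motif was CAAGTG. Its reverse complement, CACTTG, occurred at 2 places in the Sftpa1 promoter, shown in capitals, and the motif was found in 13.6% of all promoters. The FOXA motif was TGTTTAC, whose reverse complement is GTAAACA. It occurred in the Lamp3 promoter, shown in capitals, and in an alternative Etv5 promoter, and it was found in 3.65% of all promoters. The SMAD palindrome GTCTAGAC was in none of the 7 genes' windows and in 0.213% of all promoters. These matches describe letters in a window and not binding.

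The surfactant genes lie on 7 chromosomes (GRCm38). Sftpa1 (ENSMUSG00000021789, chr14:41131782-41136452) and Sftpd (ENSMUSG00000021795, chr14:41172214-41185149) are neighbours on opposite strands, and Sftpc (ENSMUSG00000022097, chr14:70520949-70524081) is on the same chromosome. Sftpb (ENSMUSG00000056370) is at chr6:72304610-72314371, Slc34a2 (ENSMUSG00000029188) at chr5:53038081-53071664, and Lpcat1 (ENSMUSG00000021608) at chr13:73467197-73516422. Lamp3 (ENSMUSG00000041247, chr16:19653378-19706375) and Etv5 (ENSMUSG00000013089, chr16:22381309-22439719) share chromosome 16. Exons of Abca3 (ENSMUSG00000024130, chr17:24351950-24410201) overlap those of the antisense gene D330041H03Rik, and exons of Napsa (ENSMUSG00000002204, chr7:44572380-44586862) overlap those of Gm15396. Whether counting used strand is not given in the sources used here, so reads of these antisense partners cannot be told apart from those of Abca3 and Napsa.

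Unique molecular identifiers (UMIs) numbered 46449235 to 66557262 per library, and filtering left 49671 cells whose median depth was 4463 to 6324 UMIs by library. Smad4 over all cells was 60.5, 53.9, 39.7 and 54.0 counts per 1000000 UMIs (CPM) in Smad4iko and 78.4, 86.4 and 85.9 CPM in Smad4fl/fl, where a 3' tag need not lie in the deleted part. Every Smad4iko library was below every Smad4fl/fl library. Smad4fl/fl 1 stood apart in its cells, with 48.7% leukocytes and 25.1% endothelial cells, against 86.6% to 94.5% and 2.58% to 7.15% in the other 6 libraries. Smad4iko 3 and 4 stood apart in expression. In T cells, B cells, neutrophils and alveolar macrophages 72.5% to 97.3% of their cells fell into 1 cluster per class, which held at most 6.96% of that class in any other library. In NK cells 83.6% and 88.3% of their cells fell into 1 cluster, against 17.9% to 33.1% elsewhere. Both are Smad4iko, so no comparison of genotypes within that set can be made. Each edgeR difference below is also given without them where that changed its direction or its call. The exact permutation test and the comparison of leukocytes with AT2-like cells were not repeated without both. Any 2 libraries shared 12 to 29 cell barcodes, at most 0.377%. Cells were clustered without the surfactant genes and named by other markers, and each class name stands for cells like that type.

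AT2-like cells were rare. Of 429 epithelial cells, 109 were AT2-like, with 9, 2, 8 and 22 in Smad4iko 1 to 4 and 46, 13 and 9 in Smad4fl/fl 1 to 3. All 14 AT2 markers used for naming, none of them a surfactant gene, were higher in this cluster than in the other epithelial cells (for example the chemokine Cxcl15, 4219 against 243 CPM). The surfactant genes made up 21.3% of all UMIs of AT2-like cells, and Sftpc alone made up 16.6%. By library their share was 19.3%, 18.5%, 18.4% and 21.4% in Smad4iko and 23.2%, 20.1% and 17.6% in Smad4fl/fl. The ranges of the genotypes overlapped.

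Among the secreted proteins Sftpc was highest. Its level in AT2-like cells was 154311, 136938, 133081 and 160601 CPM in Smad4iko and 185448, 156558 and 139542 CPM in Smad4fl/fl. Sftpb, which is needed to form the lamellar body and the film, was at 6714, 12864, 13123 and 11669 CPM in Smad4iko and at 8416, 9448 and 7138 CPM in Smad4fl/fl. For Sftpb, Smad4iko 2, 3 and 4 were above every Smad4fl/fl value and Smad4iko 1 was below them, so the groups overlapped, as they did for Sftpc. Sftpa1 was at 19678, 15567, 20319 and 24328 CPM in Smad4iko and at 23133, 20494 and 15888 CPM in Smad4fl/fl. Sftpd was at 3750, 2936, 3621 and 4949 CPM in Smad4iko and at 4957, 3766 and 1810 CPM in Smad4fl/fl. Values of both collectins overlapped between the genotypes.

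Of the transporters and lamellar body genes, Slc34a2 was highest, with 4221, 7784, 7343 and 5827 CPM in Smad4iko and 3291, 4989 and 5309 CPM in Smad4fl/fl. Abca3 had 356, 559, 911 and 609 CPM in Smad4iko and 532, 644 and 519 CPM in Smad4fl/fl. Lamp3 had 1418, 3169, 2013 and 2042 CPM in Smad4iko and 1839, 1655 and 1886 CPM in Smad4fl/fl. The highest value of each of these genes was in a Smad4iko library, and for each of them at least 1 Smad4iko library lay within or below the range of Smad4fl/fl. Napsa had 1983, 2377, 1484 and 2245 CPM in Smad4iko and 2759, 1997 and 1575 CPM in Smad4fl/fl. Lpcat1 had 585, 2144, 1271 and 929 CPM in Smad4iko and 998, 946 and 1575 CPM in Smad4fl/fl. Etv5 had 302, 606, 720 and 555 CPM in Smad4iko and 340, 489 and 405 CPM in Smad4fl/fl. None of the 10 genes separated the genotypes in AT2-like cells. Smad4iko 2 rested on 2 cells and gave the highest Lamp3 and Lpcat1 values.

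**Figure D1:**
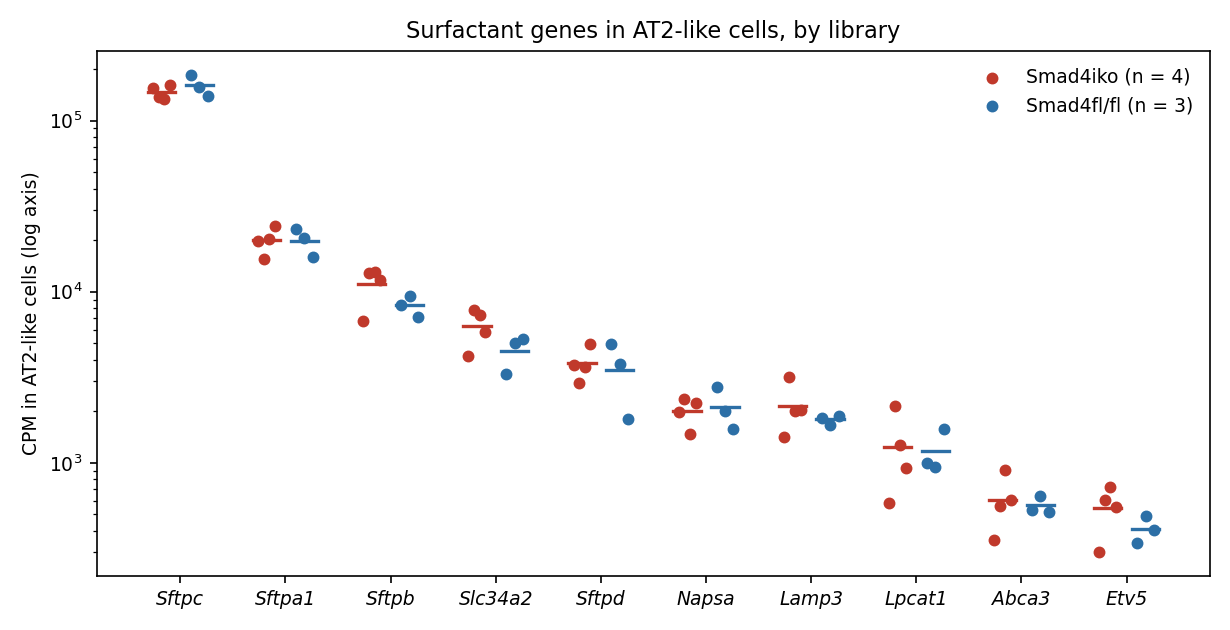
Level of the 10 surfactant genes (x axis) in AT2-like cells, in counts per 1000000 UMIs (CPM) on a log axis, with 1 point per library and a line at the mean (Smad4iko left and red, n = 4; Smad4fl/fl right and blue, n = 3). The libraries of the genotypes overlap for every gene, from Sftpc (133081 to 185448) down to Etv5 (302 to 720).

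The planned test in AT2-like cells needed at least 10 cells per library, which left 1 Smad4iko library, so no such test could be made. With a minimum of 5 cells, chosen after seeing the data, 6 libraries entered and Smad4iko 2 was dropped. The edgeR quasi-likelihood test then called none of the 10 genes, where 0% of the 1837 genes tested were called in AT2-like cells (99 had an unadjusted p under 0.05, and DESeq2 called 0). The differences of Smad4iko from Smad4fl/fl on the log2 scale were -0.18 ± 0.23 for Sftpc (SE, adjusted p = 0.936), 0.25 ± 0.25 for Sftpb (0.912), 0.03 ± 0.22 for Sftpa1 (0.993) and 0.13 ± 0.34 for Sftpd (0.967). They were 0.29 ± 0.23 for Slc34a2 (0.910), 0.04 ± 0.30 for Abca3 (0.993), -0.06 ± 0.21 for Lamp3 (0.981), -0.24 ± 0.28 for Napsa (0.930), -0.42 ± 0.29 for Lpcat1 (0.910) and 0.27 ± 0.30 for Etv5 (0.925), again by edgeR. The difference with the greatest size was that of Lpcat1. Without Smad4iko 3 and 4, where Smad4iko 1 alone was set against 3 Smad4fl/fl libraries, 9 of the 10 differences were negative, and Abca3 had -0.69 ± 0.39 and Lpcat1 -1.01 ± 0.38 (edgeR, adjusted p = 0.942 and 0.879). With so few cells, changes of the size of these errors were not detectable.

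Over the whole epithelium the libraries also differed in their number of AT2-like cells. Sftpc was at 44295, 10375, 30598 and 70369 CPM in Smad4iko epithelium and at 45729, 18364 and 51969 CPM in Smad4fl/fl epithelium. It averaged 38909 ± 25179 CPM in Smad4iko (SD, n = 4) and 38687 ± 17875 CPM in Smad4fl/fl (SD, n = 3). The edgeR test called 0% of 6854 genes in epithelium (211 at an unadjusted p under 0.05, and 2 by DESeq2) and none of the surfactant genes, whose adjusted p was 0.998 each. Of the 10 differences 9 were positive, from 0.11 ± 0.49 (Napsa) to 0.63 ± 0.51 (Sftpb) on the log2 scale, and Lpcat1 had -0.06 ± 0.46. Without Smad4iko 3 and 4 all 10 were negative, from -0.89 ± 0.47 (Lpcat1) to -0.36 ± 0.47 (Slc34a2). The direction in epithelium therefore rested on those libraries. AT2-like cells were 22 of 45 epithelial cells in Smad4iko 4 and 2 of 23 in Smad4iko 2.

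Single AT2-like cells varied more than libraries did. Sftpc had a median of 162814 CPM per cell, with quartiles at 122965 and 194846 and a highest value of 261295. At least 1 UMI of Sftpc was found in 98.2% of AT2-like cells, and the lowest such share among the 10 genes was 89.9%, for Etv5. Across the 109 cells, levels of Sftpa1, Sftpc, Sftpd and Napsa went together, with a median Spearman correlation of 0.55 over 6 pairs (0.50 to 0.69). The other 6 genes also went together, with a median of 0.47 over 15 pairs (0.26 to 0.58). Between the sets the median was -0.02 over 24 pairs (-0.16 to 0.21). The highest correlation of the second set was that of Sftpb with Slc34a2, 0.58, while Sftpc with Slc34a2 gave -0.16. Within Smad4fl/fl 1 (46 cells) the medians were 0.52, 0.39 and -0.11, and within Smad4iko 4 (22 cells) they were 0.11, 0.28 and -0.07. These sets were formed after the correlations were seen, and the cells share libraries and depth, so the values are given as a description.

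Outside AT2-like cells the epithelium split into 6 more clusters. In ciliated-like cells (112 cells) Sftpc was 73.7 CPM, and in AT1-like cells, the flat cells of gas exchange (92 cells), it was 218 CPM, against 166073 CPM in AT2-like cells. A cluster of 28 cells with markers of AT1 and AT2 cells had 38783 CPM, and a cluster of 23 cells with ciliated markers had 27409 CPM. In the 28 cells general endothelial markers scored above general epithelial ones (mean z-score 1.405 against 1.043). Their depth was 4.33 times the median of their libraries. Whether these droplets held more than 1 cell was not tested, and both clusters are part of the epithelial sums. Smad4fl/fl 1 held 20 of the 28 cells and 12 of the 23 cells. Club-like cells, the secretory cells of the small airways, differed in kind. Their Sftpc was 541 CPM in 30 cells, but Sftpa1 was 1737 CPM, Sftpb 907 CPM and Sftpd 398 CPM. By library, club-like cells held 23, 69, 296 and 228 Sftpa1 UMIs in Smad4iko and 624, 474 and 5 in Smad4fl/fl. Their Sftpc UMIs were 0, 2, 227 and 282 in Smad4iko and 5, 16 and 3 in Smad4fl/fl, and 1 cell held 282 of the 535. Sftpa1 was thus above Sftpc in every library but Smad4iko 4, whereas in AT2-like cells Sftpc was above Sftpa1 in every library. Lamp3 and Slc34a2 of club-like cells rested on 3 and 9 UMIs. In the 112 ciliated-like cells Sftpa1 was 355 CPM and made up 62.6% of the UMIs of 6 surfactant genes (Sftpa1, Sftpb, Sftpc, Sftpd, Slc34a2 and Lamp3), but 1 cell held 332 of the 635 Sftpa1 UMIs and 11 cells held any. Sftpa1 of club-like cells was 780, 939, 1647 and 1645 CPM in Smad4iko and 3840, 1174 and 2106 CPM in Smad4fl/fl, with 1 to 8 cells in each.

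**Figure D2:**
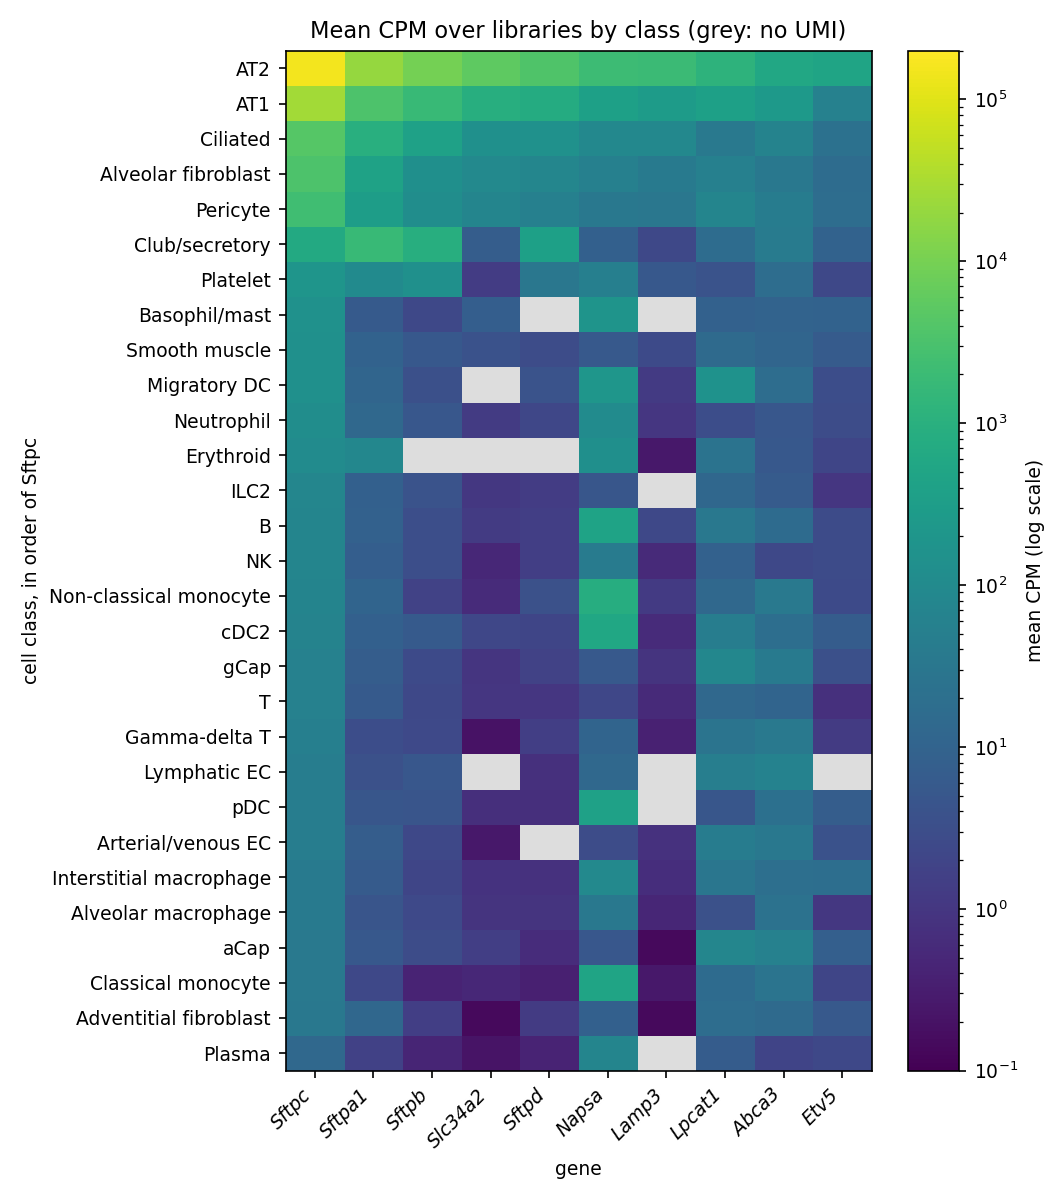
Mean level over libraries of the 10 surfactant genes (columns) in the 29 named cell classes (rows, in order of Sftpc), in counts per 1000000 UMIs (CPM) on a log colour scale, with grey for no UMI. All 10 genes are highest in AT2-like cells, and Napsa, Abca3 and Lpcat1 also stand out in monocytes, B cells and dendritic cells or in endothelium; the AT1-like and ciliated-like rows include the clusters that carry AT2 markers.

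Across the 29 named classes, all 10 genes were highest in AT2-like cells, but Napsa, Lpcat1 and Abca3 were broad. Napsa reached 844 CPM as a mean over libraries in non-classical monocytes, 579 CPM in cDC2 (a subset of dendritic cells) and 448 CPM in B cells. Non-classical monocytes with a Napsa UMI were 88.0% (median 5640 UMIs per cell), against 1.23% of T cells (median 5732 UMIs). Their Napsa UMIs were 2182 times the number that their Sftpc UMIs would bring at the proportions of AT2-like cells, the expected number (95% counting interval 2141 to 2224). Lpcat1 reached 165 CPM in migratory dendritic cells, 80.4 CPM in general capillary cells (gCap) and 76.6 CPM in aerocytes (aCap), the capillary cells of gas exchange. In aCap it was 245 times the expected number (229 to 261). Abca3 reached 61.7 CPM in lymphatic endothelium, 57.9 CPM in aCap and 23.9 CPM in alveolar macrophages, where it was 214 times the expected number (204 to 224). Etv5 was low outside AT2-like cells, with 18.7 CPM in interstitial macrophages, 239 times the expected number (201 to 282). In these classes Napsa, Lpcat1, Abca3 and Etv5 were above what free AT2-like RNA would bring, so they were not used as a measure of free RNA. Whether their low levels in other classes came from stray RNA of leukocytes or endothelium was not tested.

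The other 6 genes were present in leukocytes at a low level. In T cells, which do not make surfactant, 22.9% held a Sftpc UMI (median depth 5732 UMIs), 17.1% held exactly 1, and no T cell held more than 23. The amounts of Sftpa1 and Sftpb were set against that of Sftpc. In T cells Sftpa1 was 0.819 times the number expected from Sftpc (0.740 to 0.905) and Sftpb 0.755 times (0.640 to 0.885). In alveolar macrophages Sftpa1 was 0.963 times (0.860 to 1.08) and Sftpb 1.13 times (0.965 to 1.33) the expected number, and in gCap Sftpa1 was 0.994 times (0.870 to 1.13). Both were thus near the proportions of AT2-like cells in macrophages, as was Sftpa1 in gCap, and both were below them in T cells. Slc34a2 averaged 0.972 and 0.503 CPM in T and NK cells, beside 57.5 and 73.4 CPM of Sftpc. In aCap it was 1.44 CPM beside 35.3 CPM, and in AT2-like cells 5538 CPM beside 152354 CPM. Relative to Sftpc it was below the AT2-like proportion in T and NK cells but not in aCap. Sftpc made up 82.5% of the UMIs of the 6 genes in leukocytes other than alveolar macrophages, 80.0% in alveolar macrophages and 81.6% in endothelium, against 79.7% in AT2-like cells and 15.04% in club-like cells. Sftpa1 made up 9.50%, 10.2% and 10.6% in the same leukocytes, macrophages and endothelium, against 10.6% in AT2-like cells and 48.3% in club-like cells. In leukocytes of Smad4iko 3 the Sftpb share was 11.7%, above the 2.73% to 7.08% of the other libraries. A platelet-like cell of Smad4iko 3 held many Sftpb UMIs, and over all 91 platelet-like cells Sftpb was 36.7 times the expected number (29.2 to 45.4). Intervals cover counting error only.

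**Figure D3:**
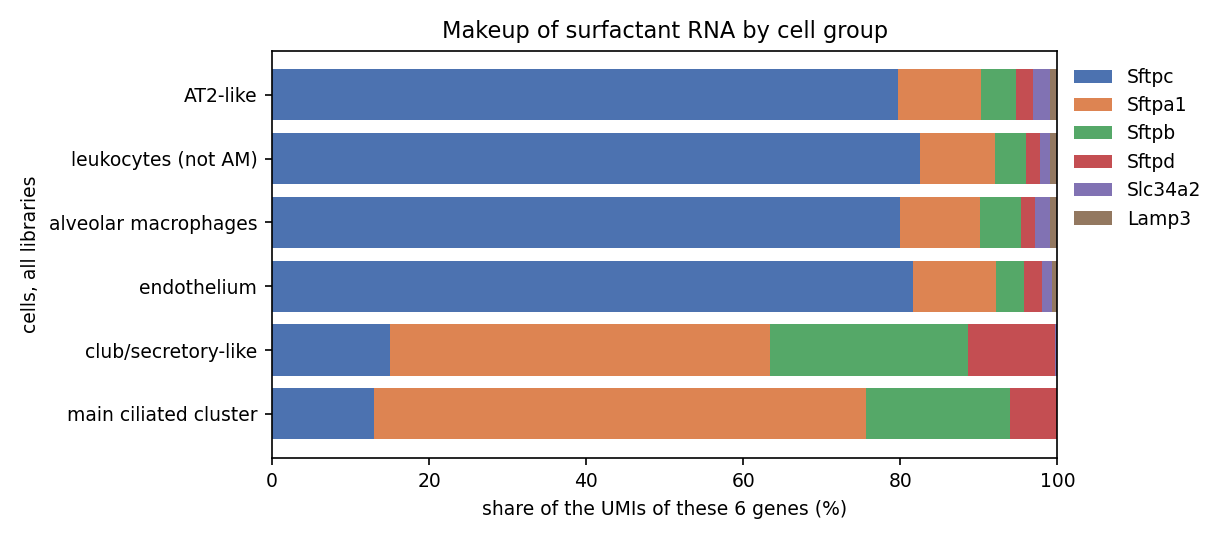
Share of each of 6 surfactant genes in their summed UMIs, in percent, as 1 stacked bar per cell group over all libraries. Sftpc takes 79.7% to 82.5% in AT2-like cells, leukocytes, alveolar macrophages and endothelium, and 15.04% and 13.005% in club-like cells and the main ciliated-like cluster.

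Some stromal classes had high Sftpc means that came from few cells. Of 23390 Sftpc UMIs in alveolar fibroblasts, 92.8% were in 14 of 1310 cells that held at least 100 UMIs each, and in pericytes 95.7% were in 6 of 353 cells. In T cells no cell reached 100 UMIs. Predicted doublets had been removed, and what these few cells are was not tested.

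Free Sftpc RNA was lower in most Smad4iko libraries. In leukocytes other than alveolar macrophages it was 58.2, 22.9, 8.35 and 21.1 CPM in Smad4iko and 178, 130 and 35.6 CPM in Smad4fl/fl. In Smad4iko 2, 3 and 4 it was lower than in any Smad4fl/fl library, and Smad4iko 1 lay above Smad4fl/fl 3, so the groups overlapped. Per 1000 leukocytes there were 377, 124, 44.8 and 131 Sftpc UMIs in Smad4iko and 1018, 610 and 234 in Smad4fl/fl. The mean log2 difference was -2.03, a ratio of 0.245, and a two-sided exact permutation test over 35 assignments gave p = 0.0857, where 0.0286 is the smallest p possible. Without Smad4iko 3 the log2 difference was -1.52 (exact p = 0.2), and without Smad4fl/fl 1 it was -1.55 (exact p = 0.267). The share of leukocytes with a Sftpc UMI was 29.5%, 10.4%, 3.35% and 9.48% in Smad4iko and 51.8%, 41.6% and 18.7% in Smad4fl/fl. Relative to AT2-like cells of the same library, the leukocyte level was 0.0377%, 0.0167%, 0.00628% and 0.0131% in Smad4iko and 0.0957%, 0.0827% and 0.0255% in Smad4fl/fl.

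In T cells the order of libraries was the same after depth was made equal. Thinned to 1000 UMIs, 6.46%, 2.15%, 0.533% and 1.40% held a Sftpc UMI in Smad4iko and 16.8%, 11.5% and 3.61% in Smad4fl/fl. Unthinned, the shares were 29.6%, 9.70%, 3.18% and 9.32% in Smad4iko and 51.9%, 41.7% and 18.8% in Smad4fl/fl. In neutrophils Smad4fl/fl 2 passed Smad4fl/fl 1 after thinning (25.04% and 23.5%, against 44.7% and 47.3% unthinned). In alveolar macrophages Smad4iko 1 went below Smad4fl/fl 3 after thinning (1.95% and 2.30%, against 31.9% and 24.2% unthinned). The order of Sftpc UMIs per 1000 cells also recurred across cell classes. In 9 classes with at least 50 cells in each library, Smad4fl/fl 1 was highest in 8 and Smad4iko 3 lowest in 8, and in 7 classes 3 of 4 Smad4iko libraries had less Sftpc than any Smad4fl/fl library. Smad4iko 1 lay above Smad4fl/fl 3 in all 9. These classes share their libraries and are not 9 independent tests. Per 1000 cells the highest of the 9 classes was 1.54, 1.73 and 3.26 times the lowest in Smad4iko 1, 2 and 4 and 1.46 and 1.59 times in Smad4fl/fl 1 and 3. In Smad4iko 3 and Smad4fl/fl 2 the ratio was 15.8 and 6.58, with cDC2 highest, where 1 cell held 83.9% and 78.8% of the cDC2 Sftpc UMIs. Alveolar macrophages of Smad4iko 3 held 145 Sftpc UMIs per 1000 cells, also above its NK cells with 23.1.

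**Figure D4:**
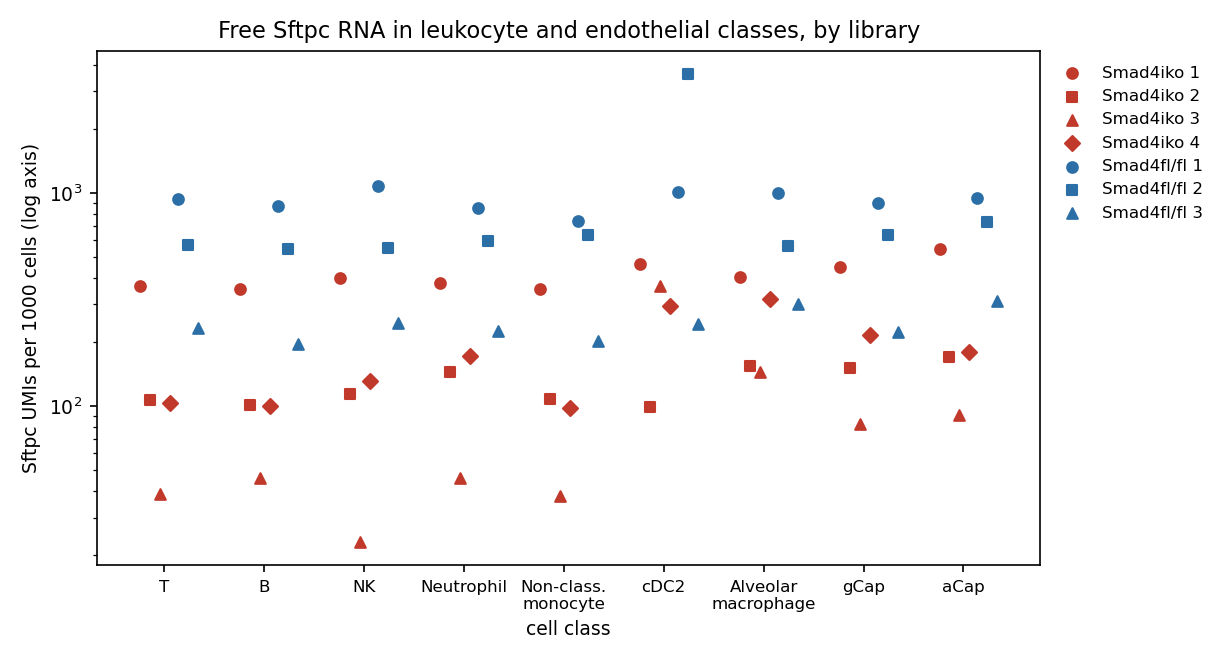
Sftpc UMIs per 1000 cells (log axis) in cell classes other than epithelium, with 1 point per library (Smad4iko red and left, Smad4fl/fl blue and right in each class). Within a class the libraries keep nearly the same order, with Smad4fl/fl 1 on top in 8 of 9 classes and Smad4iko 3 lowest in 8.

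Per gene, edgeR called no surfactant gene in leukocytes other than alveolar macrophages, where 0.0216% of 13888 genes were called (3 genes; 1516 had an unadjusted p under 0.05, and DESeq2 called 240). Sftpc differed by -1.96 ± 0.67 (SE, adjusted p = 0.423) on the log2 scale, Sftpa1 by -1.75 ± 0.56 (0.411), Sftpb by -1.44 ± 0.47 (0.418) and Sftpd by -1.44 ± 0.68 (0.462). Slc34a2 differed by -0.89 ± 0.53 (0.522) and Lamp3 by -0.73 ± 0.52 (0.579), also by edgeR. All 6 free RNA genes had negative differences. The other 4 genes had smaller ones, with Abca3 at 0.15 ± 0.17, Napsa at 0.38 ± 0.30, Etv5 at 0.37 ± 0.30 and Lpcat1 at -0.41 ± 0.21. Without Smad4iko 3 and 4 Sftpc had -1.40 ± 0.71 (edgeR, adjusted p = 0.746) and Abca3 -0.06 ± 0.16. Sftpa1 was at 6.76, 2.46, 1.59 and 3.03 CPM in Smad4iko leukocytes and at 19.2, 13.6 and 4.52 CPM in Smad4fl/fl leukocytes. Sftpb was at 1.90, 1.12, 1.42 and 1.98 CPM in Smad4iko and at 6.24, 6.33 and 1.53 CPM in Smad4fl/fl. For both genes the lowest Smad4fl/fl library, Smad4fl/fl 3, lay within the range of Smad4iko. Napsa, carried mainly by monocytes, B cells and dendritic cells, was at 141, 207, 268 and 161 CPM in Smad4iko leukocytes and at 200.1, 177 and 116 CPM in Smad4fl/fl leukocytes, and it followed neither the order nor the direction of Sftpc.

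In alveolar macrophages, which take up surfactant, Sftpc was 25.9, 12.3, 13.7 and 23.6 CPM in Smad4iko macrophages and 117, 44.6 and 23.8 CPM in Smad4fl/fl macrophages. Per 1000 macrophages there were 405, 154, 145 and 319 Sftpc UMIs in Smad4iko and 1003, 566 and 300 in Smad4fl/fl, so Smad4iko 2 and 3 were below every Smad4fl/fl library and the groups overlapped. Sftpa1 was 2.96, 1.47, 1.63 and 2.72 CPM in Smad4iko and 14.3, 6.41 and 3.49 CPM in Smad4fl/fl, and the groups did not overlap in CPM. Per 1000 macrophages they did, with 46.2 Sftpa1 UMIs in Smad4iko 1 and 44.1 in Smad4fl/fl 3. Abca3, which was not at a free RNA level there, was 24.1, 26.1, 25.7 and 32.1 CPM in Smad4iko and 20.1, 22.1 and 16.8 CPM in Smad4fl/fl, without overlap and in the other direction. Per 1000 macrophages Abca3 overlapped too, with 272 to 434 UMIs in Smad4iko and 172 to 281 in Smad4fl/fl. The share of all genes without overlap in CPM is not given here, so the lack of overlap is only a description. Of the 7 surfactant genes tested in alveolar macrophages none was called, where 0.0175% of 11422 genes were. The log2 differences by edgeR were -1.89 ± 0.47 for Sftpa1 (adjusted p = 0.514), -1.75 ± 0.49 for Sftpc (0.559), -1.25 ± 0.49 for Sftpb (0.744) and 0.39 ± 0.13 for Abca3 (0.677). Napsa had 0.28 ± 0.15, Lpcat1 0.24 ± 0.22 and Etv5 0.68 ± 0.58. Without Smad4iko 3 and 4, Sftpa1 had -1.80 ± 0.59 and Abca3 0.35 ± 0.14 (edgeR, adjusted p = 0.419 and 0.544). Other settings called Sftpa1. With DESeq2, which called 0.365% of its genes in alveolar macrophages, Sftpa1 had -1.90 ± 0.49 (adjusted p = 0.0311). With counts scaled to the number of cells, a setting that called 0.852% of genes, edgeR gave -1.47 ± 0.38 for Sftpa1 (adjusted p = 0.0218) and -1.28 ± 0.29 for Sftpc (0.00358).

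In endothelium Sftpc was 46.8, 19.7, 14.8 and 25.7 CPM in Smad4iko and 128, 69.1 and 31.9 CPM in Smad4fl/fl, with Smad4iko 1 inside the range of Smad4fl/fl. Sftpa1 was 6.40, 5.48, 1.14 and 4.95 CPM in Smad4iko and 16.4, 7.30 and 4.38 CPM in Smad4fl/fl. None of the 6 surfactant genes tested was called, where edgeR called 0.00942% of 10617 endothelial genes. Sftpc had a log2 difference of -1.53 ± 0.45 (edgeR, adjusted p = 0.849) and Sftpa1 of -1.15 ± 0.50 (0.871). Without Smad4iko 3 and 4 Sftpc had -1.22 ± 0.53. Lpcat1, which endothelium carries itself, was 82.2, 75.7, 73.4 and 69.6 CPM in Smad4iko and 72.8, 78.0 and 75.7 CPM in Smad4fl/fl, a difference of -0.03 ± 0.10. Abca3 was 53.0, 46.6, 46.6 and 38.9 CPM in Smad4iko and 34.4, 41.9 and 48.2 CPM in Smad4fl/fl. Sftpc was called in endothelium by edgeR with no filter on low counts (-1.54 ± 0.32, adjusted p = 0.0489, among 0.137% of genes called) and when scaled to the number of cells (-1.40 ± 0.31, adjusted p = 0.00396, among 0.298% called).

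**Figure D5:**
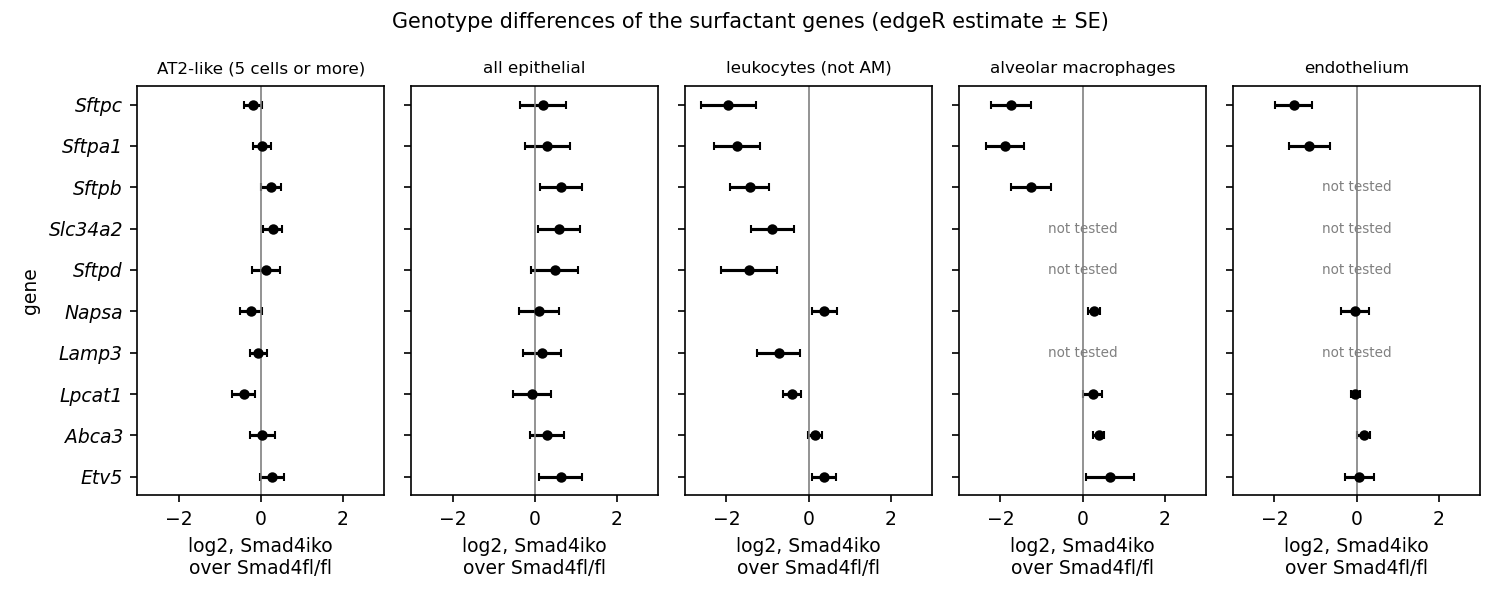
Log2 difference of Smad4iko over Smad4fl/fl for each surfactant gene by cell group, with bars of 1 SE from edgeR. In leukocytes, alveolar macrophages and endothelium the differences of Sftpc and Sftpa1 lie between -1.96 and -1.15, and in AT2-like cells all 10 lie between -0.42 and 0.29.

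The difference in leukocytes was then set against that in AT2-like cells. With limma on the log2 level in leukocytes minus that in AT2-like cells of the same library (6 libraries), the genotype difference was -1.88 ± 0.65 for Sftpc, -1.65 ± 0.48 for Sftpd, -1.71 ± 0.54 for Sftpa1 and -1.31 ± 0.48 for Sftpb (SE, limma's adjusted p = 0.809 each). For the other genes the same difference was -1.12 ± 0.63 (Slc34a2), -0.70 ± 0.43 (Lamp3) and -0.03 ± 0.32 (Etv5). It was 0.44 ± 0.46 for Napsa, 0.17 ± 0.32 for Abca3 and 0.06 ± 0.40 for Lpcat1. None of 1767 genes passed the adjusted threshold, so these differences did not pass the test. The share of UMIs that came from epithelial cells was also set against leukocyte Sftpc. Epithelial cells gave 0.943%, 0.634%, 0.808% and 2.14% of all UMIs in Smad4iko and 4.31%, 2.74% and 0.642% in Smad4fl/fl. Over the 7 libraries this share and leukocyte Sftpc had Pearson r = 0.88 (exact permutation p = 0.0173) and Spearman rho = 0.61 (exact permutation p = 0.167). Without the 2 libraries farthest from the median share, r was -0.14 (n = 5), so the relation rested on those libraries.

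Free RNA of other cell types did not all follow Sftpc. In T cells Cxcl15, a chemokine of the alveolar epithelium, was 1.04, 0.281, 0.324 and 1.17 CPM in Smad4iko and 2.65, 1.46 and 0.965 CPM in Smad4fl/fl, with Smad4fl/fl 3 inside the range of Smad4iko as for Sftpc. Cxcl15 rested on 2 to 17 UMIs per library. Ager, also an alveolar epithelial gene, and Lyz1 did not keep the order of Sftpc. Ager was 1.79, 1.69, 1.51 and 2.35 CPM in Smad4iko and 4.68, 0.976 and 2.08 CPM in Smad4fl/fl. Lyz1 was 0, 0.141, 0.431 and 2.25 CPM in Smad4iko and 0.312, 0.976 and 0.965 CPM in Smad4fl/fl, on 0 to 23 UMIs per library. Lyz1 was not confined to epithelium, with 27.7 CPM over all leukocytes against 1026 CPM in AT2-like cells. It was also among the leading genes of interstitial macrophages, and the source of its RNA in T cells was not tested. Cbr2, an airway enzyme, was 3.78, 1.41, 2.16 and 2.93 CPM in Smad4iko and 9.52, 6.35 and 1.19 CPM in Smad4fl/fl. Scgb1a1, the main secreted protein of club cells, was 242, 12.9, 152 and 49.2 CPM in Smad4iko and 158, 591 and 15.6 CPM in Smad4fl/fl. Hbb-bs, a globin of red cells, was 20.4, 12.4, 485 and 282 CPM in Smad4iko and 0.156, 3.61 and 3.49 CPM in Smad4fl/fl. S100a8, a neutrophil protein, was 59.0, 198, 87.8 and 47.6 CPM in Smad4iko and 2.50, 7.62 and 18.3 CPM in Smad4fl/fl. Hbb-bs and S100a8 were higher in every Smad4iko library than in any Smad4fl/fl library. Sftpc was lower in most Smad4iko libraries but overlapped, and the globin Hba-a1 overlapped too. Hbb-bs was highest in Smad4iko 3 and 4, the libraries that stood apart. The share of all genes without overlap in T cells is not given here, so the lack of overlap is only a description. Cxcl15, Ager, Lyz1, Cbr2 and Hba-a1 were picked after their values were seen. Mgp, a stromal protein, was 13.7, 8.01, 2.59 and 4.10 CPM in Smad4iko and 116, 4.30 and 5.27 CPM in Smad4fl/fl. No gene of the free RNA lists passed edgeR's test in any cell group.

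A list of 46 further genes of surfactant metabolism covered transcription factors, lipid synthesis, lamellar body traffic, control of the surfactant pool and clearance. None was called in any cell group. In epithelium 31 were tested, 18 positive and 13 negative, with a median log2 difference of 0.06, against -0.0037 over all genes. In AT2-like cells 12 of 24 were positive, in leukocytes 20 of 39, in alveolar macrophages 16 of 35 and in endothelium 15 of 33. In AT2-like cells Nkx2-1, which drives surfactant genes, averaged 453 ± 168 CPM in Smad4iko (SD, n = 4) and 363 ± 90.3 CPM in Smad4fl/fl (SD, n = 3), a log2 difference of 0.09 ± 0.31. Cebpa, another transcription factor of AT2 cells, averaged 344 ± 133 CPM in Smad4iko and 205 ± 91.0 CPM in Smad4fl/fl, a difference of 0.41 ± 0.33. Fabp5, a fatty acid carrier, averaged 1431 ± 244 CPM in Smad4iko AT2-like cells and 1066 ± 118 CPM in Smad4fl/fl AT2-like cells. Ctsh, a protease that processes SFTPB and SFTPC, averaged 1086 ± 146 CPM in Smad4iko and 1105 ± 138 CPM in Smad4fl/fl. In alveolar macrophages the scavenger receptor Marco averaged 303 ± 84.2 CPM in Smad4iko and 520 ± 206 CPM in Smad4fl/fl, a difference of -0.85 ± 0.28 (edgeR, adjusted p = 0.677).

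Profiles over the 29 classes were compared among 2648 genes that passed a minimum level in AT2-like cells, so the ranking holds only within these. The genes most like Sftpc were S100g (Pearson r = 0.97), Pla2g1b (0.96), Egfl6 (0.96), Hc (0.95) and Lgi3 (0.94). All but Pla2g1b had served to name AT2-like cells. Of the surfactant genes Slc34a2 and Lamp3 (0.97 each) were as close to Sftpc, and Sftpa1 (0.94), Sftpd (0.93) and Sftpb (0.92) somewhat less close. Etv5 (0.83), Abca3 (0.69), Lpcat1 (0.65) and Napsa (0.35) were less alike, and these are the genes not read as free RNA. The classes share libraries, so these correlations are a description.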

How the data were processed

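Lung cells of 4 Smad4iko and 3 Smad4fl/fl samples were profiled by 10x Genomics 3' RNA sequencing (paired 150 bp reads, as the labels' protocols state). The authors deposited 1 matrix of raw UMI counts for each library, written by Cell Ranger 6.1.1 per the file headers. The submitters' processing notes also name fastp, UMI-tools and mm10. UMI counts come from 3' ends and do not scale with transcript length.

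Of 55671 barcodes, 50955 had 300 genes and 600 UMIs or more, with mitochondrial UMIs up to 20%, and 1284 (2.52%) predicted doublets were removed with Scrublet in scanpy 1.11.5 (expected rate 6%). Cells were clustered (2000 variable genes, 40 components, 15 neighbours, leidenalg 0.10.2, resolution 1; epithelial cells split at 0.5) into 51 clusters without the surfactant genes, Smad4 and sex-linked, immunoglobulin and mitochondrial genes, and named by fixed markers in 29 classes; 1927 cells stayed unnamed.

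Counts were summed per library and cell group and tested with edgeR 4.0.16 (quasi-likelihood, filterByExpr, TMM), with Benjamini-Hochberg adjustment over all genes tested and a threshold of 0.05. limma 3.58.1 (log2 CPM, prior count 2) tested differences within libraries, exact permutation tests over 35 assignments tested single values, and DESeq2 1.42.0 was an alternative. CPM are counts per 1000000 UMIs of a cell group in a library. The tests were checked on simulated data. The members, the gene lists and the markers were chosen with earlier results of these data known. All 10 surfactant genes are named for AT2-like cells, for leukocytes and for the difference between them, and all tested ones for alveolar macrophages. For epithelium and endothelium only some are named. From other lists the genes that pass are named, or up to 3 per role with the highest mean CPM. The minimum of 5 AT2-like cells per library was chosen after seeing the data. The alternatives were other scalings, filters, covariates, cell filters and libraries left out.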

Additional observations from a re-analysis of the deposited data

How the results depend on the processing

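No surfactant gene passed the threshold in the main tests, and under the alternatives 2 of them passed in some settings of alveolar macrophages and endothelium. Of 658 alternatives for the 9 surfactant genes other than Sftpc, 578 kept direction and side of the threshold, 2 newly passed it and 78 changed sign. Sftpc newly passed it in 1 setting of alveolar macrophages and 2 of endothelium, and changed sign in 1 of AT2-like cells and 6 of epithelium. The cause of the changes was not tested. Each setting below gives log2 differences of Smad4iko over Smad4fl/fl and counts of all genes called.

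Without Smad4iko 3 and 4, where in AT2-like cells Smad4iko 1 alone was assumed to vary like the Smad4fl/fl libraries, AT2-like cells gave 5 genes called, with Sftpa1 -0.054, Sftpb -0.34, Abca3 -0.69, Slc34a2 -0.11 and Etv5 -0.45. Epithelium gave Sftpa1 -0.66, Sftpd -0.57, Sftpb -0.59, Sftpc -0.55, Abca3 -0.61, Slc34a2 -0.36, Lamp3 -0.63, Napsa -0.55 and Etv5 -0.56. Leukocyte Abca3 was -0.062, alveolar macrophages had 19 genes called, and endothelium had 2, with Lpcat1 0.058 and Etv5 -0.28. With a covariate for these libraries, AT2-like Sftpa1 was -0.061, Sftpb -0.35, Abca3 -0.70, Slc34a2 -0.12 and Etv5 -0.46. Epithelial Sftpa1 was -0.65, Sftpd -0.57, Sftpb -0.59, Sftpc -0.55, Abca3 -0.60, Slc34a2 -0.36, Lamp3 -0.63, Napsa -0.55 and Etv5 -0.56, leukocyte Abca3 -0.053, endothelial Lpcat1 0.063 and Etv5 -0.28, and 10 genes were called in alveolar macrophages.

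DESeq2 called 2 genes in epithelium, 240 in leukocytes, 47 in alveolar macrophages (1 surfactant gene) and 14 in endothelium. Without a filter on low counts 15 genes were called in AT2-like cells, 6 in epithelium, 9 in alveolar macrophages and 26 in endothelium (1 surfactant gene, Sftpc at -1.54). Scaled to the number of cells, 7 were called in leukocytes, 97 in alveolar macrophages (2 surfactant genes, Sftpc at -1.28) and 32 in endothelium (1, Sftpc at -1.40). Without TMM, AT2-like Lamp3 was 0.030, epithelial Sftpc -0.0026, Lamp3 -0.064 and Napsa -0.071, and endothelial Napsa 0.00033, while the median of all genes moved to -0.11 in epithelium and -0.13 in leukocytes. T cells alone gave 0 genes called, with Abca3 -0.021 and Napsa -0.12, and equal cells per class gave leukocyte Abca3 -0.050. With predicted doublets kept, epithelial Lpcat1 was 0.029 and endothelial Napsa 0.38. The stricter cell filter gave AT2-like Sftpa1 -0.11 and Lamp3 0.011 and epithelial Lpcat1 0.018, and the sex covariate gave epithelial Lpcat1 0.085.

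The replicate numbers were not treated as pairs, since in no cell group was every correlation of same-numbered deviations over 0.1. Differently numbered libraries were not correlated, so this cannot show whether the samples were paired. The correlations were 0.137, -0.0628 and 0.0857 in leukocytes, 0.420, 0.338 and 0.0525 in epithelium, 0.185, -0.102 and 0.165 in alveolar macrophages and 0.239, -0.167 and 0.183 in endothelium. With the replicate block, AT2-like Sftpa1 was -0.049 and Abca3 -0.011. Epithelium had 2 genes called, with Sftpa1 -0.42, Sftpd -0.28, Sftpc -0.43, Abca3 -0.11, Lamp3 -0.18 and Napsa -0.45. Under the block 0 genes were called in leukocytes and 5 in alveolar macrophages, and endothelial Lpcat1 was 0.024 and Etv5 -0.18.

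Leaving out 1 library at a time moved AT2-like Sftpc between -0.31 and 0.020, Abca3 between -0.23 and 0.32, Lamp3 between -0.16 and 0.10, Napsa between -0.44 and 0.11, Sftpa1 between -0.14 and 0.24 and Sftpd between -0.21 and 0.56. Epithelial Sftpc ranged from -0.25 to 0.53, Lamp3 from -0.19 to 0.62, Lpcat1 from -0.39 to 0.41, Napsa from -0.39 to 0.40 and Sftpa1 from -0.16 to 0.65. Endothelial Etv5 ranged from -0.19 to 0.30, Lpcat1 from -0.081 to 0.017 and Napsa from -0.21 to 0.19. The genes called ranged from 0 to 1 in AT2-like cells, 0 to 4 in leukocytes, 2 to 5 in alveolar macrophages and 1 to 2 in endothelium. The correlation of leukocyte Sftpc with the epithelial share ranged from 0.68 to 0.97, and the log2 difference in Sftpc UMIs per 1000 leukocytes from -2.61 to -1.52. AT2-like cells could not be tested with at least 10 or 20 cells per library, as planned. With 2 to 46 AT2-like cells per library, their number limits what could be detected there.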
